A study of Mus musculus with 9 samples.

Results

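Gata4, Gata6, Nkx2-5, Tbx5, Tbx20, Hand1, Hand2, Mef2a, Mef2c and Irx4 encode core transcription factors of the heart, and their messenger RNA was followed in fetal mouse ventricles with both, one or no intact copy of the nuclear receptor gene Esrrg. Every probe set whose platform annotation gives 1 of these 10 gene symbols was taken, whatever its values, which gave 28 of the 45037 probe sets that are not controls and 10 of the 18193 genes named there. Mef2a had 6 of them, Mef2c 5, Gata6, Tbx20 and Hand2 3 each, Gata4, Tbx5 and Hand1 2 each, and Nkx2-5 and Irx4 1 each. The samples were cardiac ventricles of male fetuses at E18.5, shortly before birth, with 3 Affymetrix arrays for each of 3 genotypes. The genotypes were ERRg +/+ (called WT), ERRg +/- (HET) and ERRg -/- (KO), and the labels give the same handling for all. Strain and the construction of the allele are not given in the sources used here, and the labels name no promoter or cell type that limits the loss. Source names carry the number 3, and it is not settled whether an array held 1 fetus or 3 pooled ones, so each p-value measures the spread between these arrays.

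These factors form the regulatory kernel of heart muscle. GATA zinc-finger proteins, the NK2 homeodomain protein Nkx2-5, T-box proteins, the basic helix-loop-helix proteins Hand1 and Hand2 and the MADS-box proteins of the MEF2 family bind one another and often occupy the same enhancers of sarcomere, ion channel and natriuretic peptide genes. Esrrg encodes ERRγ, the gamma form of the estrogen-related receptors, orphan members of the nuclear receptor family, known in heart muscle for binding genes of mitochondrial energy metabolism, and the comparison asks how the messengers of the core factors stood when it was lost. In whole ventricle, fewer cells of a type and less RNA per cell cannot be told apart.

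Upstream sequence was read for 6 of the 10 genes (8 transcription start windows for Mef2a, Hand2, Tbx20, Irx4, Mef2c and Nkx2-5). Gata4, Tbx5 and Hand1 had no entry in the sequence source, and Gata6 was left out by a choice not applied to the set of all windows below. From the genes among these 6 whose brightest probe set had no overlap between KO and WT arrays, 3 stretches are printed. They come from RefSeq on GRCm38.p6, are written 5′ to 3′ on the strand of the gene, and carry matches to the GATA and nuclear receptor motifs in capitals, with E-box matches left in lower case. The 250 bases before the Hand2 start (chr8:57320733-57320982, plus strand) hold both GATA forms searched, TGATAA and, read on the other strand, AGATAA. The same length before the Tbx20 start (chr9:24774304-24774553, minus strand) holds none of the motifs searched. The 29 bases around the match before 1 Mef2c start (chr13:83573524-83573552, plus strand) hold AAGGTCA, an extended nuclear receptor site, on the other strand.
Hand2: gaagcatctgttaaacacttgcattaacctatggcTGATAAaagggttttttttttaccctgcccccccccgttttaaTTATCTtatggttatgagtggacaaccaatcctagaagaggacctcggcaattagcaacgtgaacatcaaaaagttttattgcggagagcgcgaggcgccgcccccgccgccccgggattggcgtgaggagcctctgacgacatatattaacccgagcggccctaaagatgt
Tbx20: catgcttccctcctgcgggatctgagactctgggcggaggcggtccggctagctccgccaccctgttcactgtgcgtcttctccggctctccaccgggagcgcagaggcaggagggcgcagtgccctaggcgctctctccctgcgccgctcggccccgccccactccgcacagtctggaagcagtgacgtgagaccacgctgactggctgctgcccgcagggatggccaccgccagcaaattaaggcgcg
Mef2c: tctgttcacccTGACCTTccacccaaagt

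Each motif was searched on both strands of the 250 upstream bases of 32851 windows. TNAAGGTCA, the response element of ERR receptors, was in 1.14% of all windows and in 0 of the 8 windows of the core factors. AAGGTCA, which every TNAAGGTCA also contains, was in 4.08% of all windows and in 1 of the 8. AGATAA was in 9.99% and TGATAA in 7.94% of all windows, and each was in 1 of the 8, that of Hand2. AGGTGTGA (T-box, 1.12% of all windows), the MEF2 box (CTA and TAG with 4 bases between, 3.20%) and TNAAGTG (NK2, 10.1%) were in 0 of the 8. The loose E-box CANNTG was in 66.2% of all windows and in 4 of the 8, of Hand2, Mef2c and Nkx2-5. A match describes letters in a window and says nothing of binding.

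The brightest Esrrg probe set read 281, 213 and 206 for WT, 162, 164 and 162 for HET, and 58.3, 58.1 and 39.3 for KO, a KO mean of 22.2% of WT (limma, adjusted p = 0.000564), in the order the labels give. Its other 2 probe sets were dim, with KO means of 78.4% and 83.5% of WT and overlapping arrays, and which of the 3 reads the altered part of the gene was not analysed here. Deposited signals had medians of 36.6 to 45.9 per array, and precision is set by how few arrays there are. The ratio of 2 spike-in control RNAs, thr to dap, parted the arrays at its widest gap into 4 (WT replicates 1 to 3 and HET replicate 1, log2 ratio -1.02 to -0.81) and 5 (HET replicates 2 and 3 and KO replicates 1 to 3, -1.33 to -1.20), called here the first and second array group. The difference between the 3′ and 5′ probe sets of Gapdh, a sign of RNA quality, ran with it, at -0.13 to -0.07 against -0.21 to -0.16 on the log2 scale, whereas that of Actb overlapped. No label describes these groups, and WT and KO each lay in 1 of them, so for WT against KO genotype and array group cannot be told apart except through the 3 HET arrays. For that reason the KO minus WT differences below are also given with the array group as a block, a fit in which the HET arrays carry the adjustment. The brightest Esrrg probe set kept its difference there, at -1.89 ± 0.35 beside -1.88 ± 0.19 without the block. Its blocked p was 5.92e-05 and its adjusted p 0.275 (limma), so Esrrg itself was not called. A call lost with the block therefore does not show that a difference is absent.

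Heart markers matched the labelled tissue. The cardiomyocyte genes Myh6 (signal 12673 to 14675), Tnnt2 (22453 to 24861) and the ventricular Myl2 (25620 to 33307) were bright on all 9 arrays. Atrial genes were present as well, with Myl7 at 8244 to 12459 and Sln at 210 to 1128. Ptprc of leukocytes (25.4 to 71.6) and Sox10 of neural crest (34.5 to 88.7) were dim. Other leukocyte markers were brighter, with WT, HET and KO means of 388, 497 and 486 for Csf1r and 364, 355 and 394 for Lyz2. Means of Cd14, Cd68 and Fcgr3 lay between these and Ptprc. The dim Ptprc therefore does not show that leukocytes were absent.

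All 28 probe sets were bright enough to be tested among 27022, on log2(signal + 16), a scale that understates changes of dim genes. Between KO and WT 0 of the 28 passed limma's test at an adjusted p under 0.05, where 171 probe sets, or 0.633% of all tested, did. At an unadjusted p under 0.05 there were 7 of 28 (25.0%), against 15.7% of all probe sets, 6 of them higher in KO and 1 lower. Arrays of KO and WT did not overlap in 8 of 28 (28.6%), against 23.0% of all. The median KO minus WT difference was 0.07 over the 28 and 0.02 over all tested, and 17 of the 28 were higher in KO. These shares were a little above the background, and no test of the excess was made. With the array group as a block, 0 of 28 reached an unadjusted p under 0.05, against 6.25% of all probe sets. Without HET replicate 1 4 of 28 were called (Tbx20 1453351_at, Hand2 1436041_at and Mef2a 1421252_a_at and 1427186_a_at), at the same differences, while 1581 of all probe sets were.

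**Figure D1:**
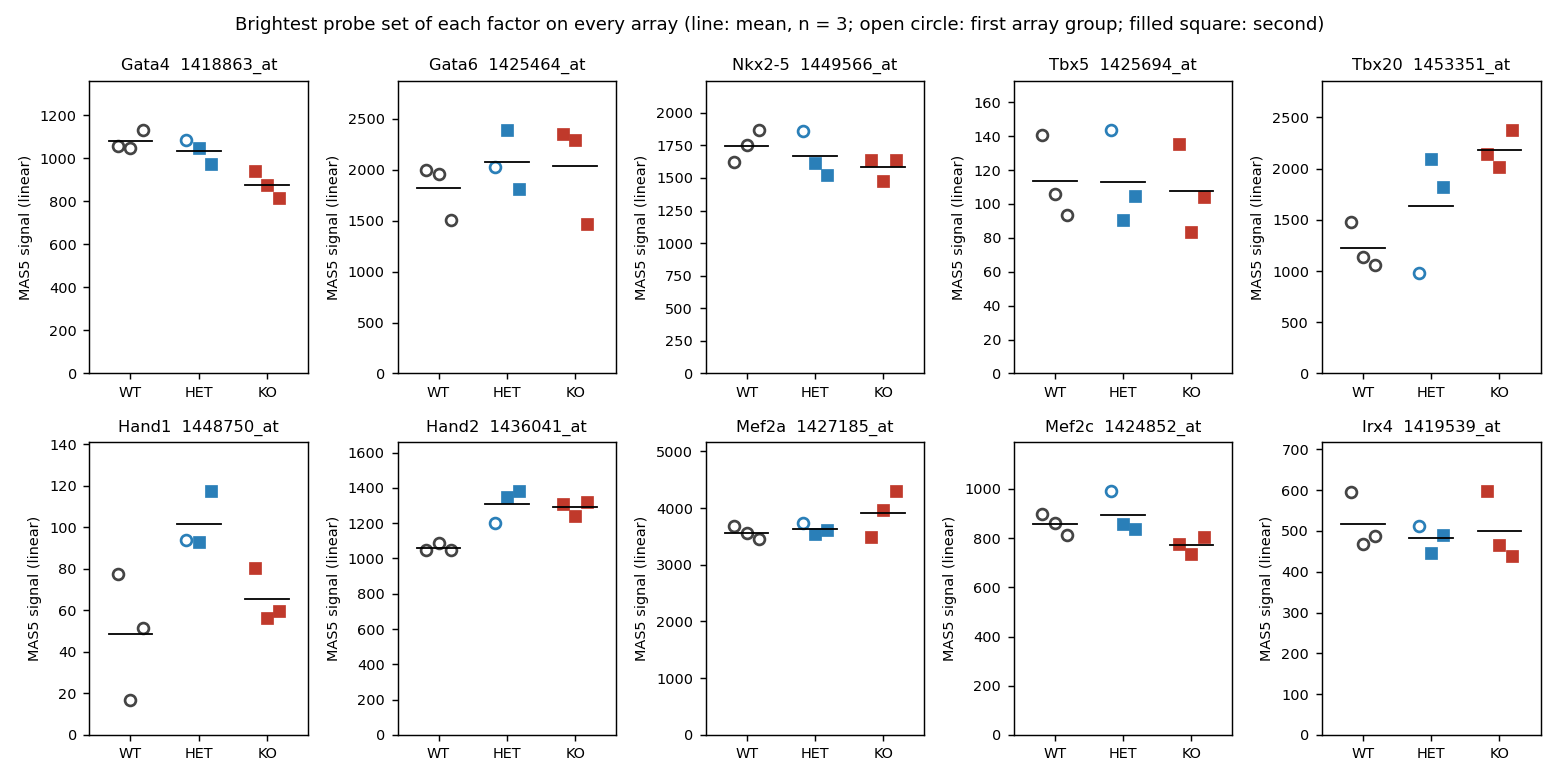
MAS5 signal (linear, y axis from 0) of the brightest probe set of each of the 10 factors by genotype, 1 point per array, with lines at the mean of 3 arrays; open circles are the first array group and filled squares the second. Gata4 is lowest on the 3 KO arrays (813 to 940), and for Tbx20 HET replicate 1 (980) lies with WT while HET replicates 2 and 3 (2099 and 1825) lie nearer KO.

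Gata4 and Gata6 encode zinc-finger activators of cardiomyocyte genes, and Gata4 is needed for growth of the ventricular wall. The brighter Gata4 probe set, 1418863_at, read 1056, 1050 and 1132 for WT, 1085, 1047 and 974 for HET, and 940, 877 and 813 for KO. All 3 KO arrays lay under every WT and HET array, which did not part from each other. KO was 81.3% of WT, a log2 difference of -0.30 ± 0.09 (SE, n = 3 and 3; limma adjusted p = 0.127), and KO minus HET was -0.24 ± 0.09 (adjusted p = 0.993). With the array group as a block KO minus WT was -0.19 ± 0.15, and within the second group KO minus HET was -0.20. Leaving out HET replicate 1 brought the adjusted p of the fit with 1 probe set per gene to 0.0475. The other Gata4 probe set, 1418864_at, built on the same database sequence, read 497, 429 and 570 for WT, 521, 536 and 479 for HET, and 493, 467 and 430 for KO, with all genotypes overlapping and a KO minus WT difference of -0.10 ± 0.12 (adjusted p = 0.775), or -0.06 ± 0.21 with the block.

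For Gata6 the 3 probe sets were all slightly higher in KO than in WT, by 0.07 to 0.14 on the log2 scale (0.10 to 0.28 with the block), and overlapped between all genotypes. The brightest, 1425464_at, read 2001, 1955 and 1504 for WT, 2026, 2391 and 1807 for HET, and 2346, 2292 and 1465 for KO. Its difference of 0.14 ± 0.16 had a 95% interval of -0.20 to 0.48 (adjusted p = 0.743), and with the block it was 0.10 ± 0.28.

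Nkx2-5, the homeodomain factor that marks cardiac progenitors and is kept in working myocardium, had a single probe set with signals of 1619, 1749 and 1869 for WT, 1860, 1611 and 1524 for HET, and 1641, 1478 and 1637 for KO. The genotypes overlapped, and KO minus WT was -0.14 ± 0.09 (95% interval -0.34 to 0.06, limma adjusted p = 0.531). The block turned the sign, to 0.11 ± 0.14, since HET replicate 1 lay with the brighter WT arrays and HET replicates 2 and 3 were 0.24 lower on the log2 scale.

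Tbx5 is a T-box factor that drives chamber and conduction genes and is stronger in atria and left ventricle. Probe set 1425694_at read 141, 106 and 93.3 for WT, 144, 90.7 and 105 for HET, and 135, 83.5 and 104 for KO, the same span in each genotype. Its KO minus WT difference was -0.07 ± 0.23 (95% interval -0.55 to 0.41), and the block turned its sign, to 0.42 ± 0.39. The companion probe set 1425695_at read 70.0 to 130 on 8 arrays and 11.1 on HET replicate 2. That array decides its blocked difference of 1.40 ± 0.71, beside 0.06 ± 0.45 without the block.

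Tbx20, a T-box factor of working myocardium that both activates and represses, showed the widest KO minus WT difference of the 28 probe sets. Its brightest probe set, 1453351_at, read 1481, 1138 and 1054 for WT, 980, 2099 and 1825 for HET, and 2142, 2014 and 2380 for KO. The KO arrays all lay above the WT arrays, and the HET arrays were spread over the whole range. KO was 178% of WT, a log2 difference of 0.83 ± 0.20 with an adjusted p of 0.0659 over all probe sets (limma). In the fit with 1 probe set per gene, its brightest, the same difference had an adjusted p of 0.0483, so Tbx20 rose in KO by that test, as 1 of 211 genes called among 13028 (1.62%) and the only one of the 10 factors. That call was kept in 6 of 21 alternative settings (adjusted p 0.000616 to 0.944) and was lost when any single WT or KO array was left out. The HET arrays, all of 1 genotype, parted with the array group. Replicates 2 and 3 were 0.99 above replicate 1 on the log2 scale, a wider gap than that between KO and WT. With the array group as a block the difference was -0.15 ± 0.20, within the first group HET replicate 1 lay 0.30 under the WT mean, and within the second KO stood 0.15 above HET.

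The other Tbx20 probe sets gave other values. Probe set 1425158_at read 1356, 1119 and 1250 for WT, 1231, 1253 and 1292 for HET, and 1133, 1365 and 1409 for KO. Its difference was 0.07 ± 0.10 (95% interval -0.15 to 0.28), an interval that leaves out the 0.83 of its neighbour, and 0.02 ± 0.17 with the block. On each array the log2 ratio of 1453351_at to 1425158_at was -0.32 to 0.13 in the first array group and 0.49 to 0.91 in the second, with no overlap. By itself 1453351_at also did not overlap between the groups, at 980 to 1481 and 1825 to 2380. Probe set 1422219_a_at, annotated for several transcripts of the gene, read 258, 240 and 206 for WT, 288, 335 and 277 for HET, and 311, 299 and 337 for KO. Here the 3 WT arrays lay under all HET and KO arrays, HET replicate 1 included. KO minus WT was 0.41 ± 0.14 (adjusted p = 0.149) and kept most of its size with the block, at 0.33 ± 0.24, and HET minus WT was 0.34 ± 0.14 (adjusted p = 0.413). The 3 probe sets are built on different database sequences, and which transcripts each one reads was not analysed here.

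**Figure D2:**
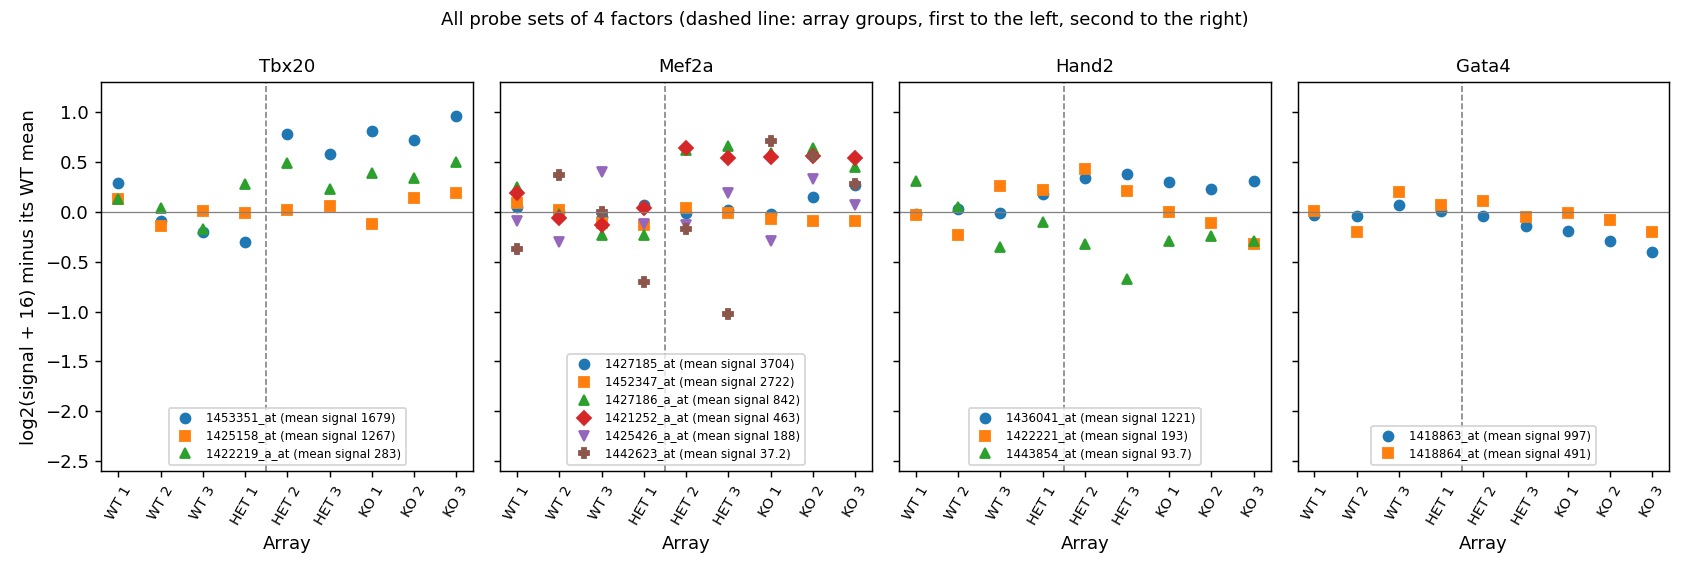
Each probe set of Tbx20, Mef2a, Hand2 and Gata4 on every array, as log2(signal + 16) minus that probe set's WT mean (y axis) by array (x axis), with a dashed line between the array groups. Tbx20 1453351_at and Mef2a 1427186_a_at and 1421252_a_at step up at the dashed line, while Tbx20 1425158_at and Mef2a 1427185_at and 1452347_at show no such step.

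Hand1 and Hand2 are basic helix-loop-helix factors of ventricular growth, Hand1 mainly in the left and Hand2 in the right ventricle of the embryonic mouse. Hand2 1436041_at read 1047, 1087 and 1049 for WT, 1203, 1347 and 1382 for HET, and 1308, 1243 and 1320 for KO. Every HET and KO array was above every WT array, and HET and KO overlapped. KO was 122% and HET 124% of WT, log2 differences of 0.28 ± 0.09 (adjusted p = 0.123) and 0.30 ± 0.09 (adjusted p = 0.325). With the block they were 0.10 ± 0.13 and 0.18 ± 0.10. Without HET replicate 1 the KO minus WT difference had an adjusted p of 0.0317 in the fit with 1 probe set per gene.

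The dimmer Hand2 probe sets ran otherwise. On 1422221_at the signals were 180, 155 and 224 for WT, 217, 253 and 216 for HET, and 184, 169 and 144 for KO, so that KO lay under HET on all arrays (KO minus HET -0.43 ± 0.17, adjusted p = 0.993, and -0.47 with the block) and overlapped WT. Probe set 1443854_at read 62.7 to 139 over the 9 arrays, with KO minus WT at -0.28 ± 0.23, or 0.11 ± 0.40 with the block.

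Hand1 signals were low, and its 2 probe sets share a database sequence. On 1448750_at the signals were 77.4, 16.9 and 51.3 for WT, 93.8, 93.0 and 117 for HET, and 80.3, 56.1 and 59.6 for KO. HET was the highest genotype, with all 3 arrays above all others. HET minus WT was 0.98 ± 0.32 (adjusted p = 0.348) and 0.89 ± 0.46 with the block, and KO minus WT was 0.45 ± 0.32, or 0.31 ± 0.59 with the block. Probe set 1417525_at had the same order of means, 52.3 ± 18.1 in WT, 74.4 ± 4.20 in HET and 60.1 ± 18.3 in KO (SD, n = 3), with overlapping arrays and a KO minus WT difference of 0.16 ± 0.27, or 0.17 ± 0.50 with the block.

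Mef2a and Mef2c encode MADS-box factors. Mef2c is needed early for the ventricle and Mef2a acts later in mitochondrial and structural gene expression of the mouse heart. The brightest Mef2a probe set, 1427185_at, read 3677, 3564 and 3449 for WT, 3744, 3535 and 3613 for HET, and 3498, 3959 and 4298 for KO, with overlap and a difference of 0.13 ± 0.08 (95% interval -0.04 to 0.30), or 0.20 ± 0.13 with the block. Next to it, 1452347_at read 2549 to 2980 over the 9 arrays, with a difference of -0.08 ± 0.08, or -0.23 ± 0.12 with the block. Both intervals of the fit without the block leave out 0.55, the size of difference found with the following probe sets.

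Those were 1421252_a_at and 1427186_a_at, whose suffix marks probes shared by several transcripts of a gene. The first read 414, 346 and 327 for WT, 372, 572 and 531 for HET, and 535, 541 and 530 for KO, a KO minus WT difference of 0.55 ± 0.15 (adjusted p = 0.0841) that was 0.00 ± 0.20 with the block. The second read 787, 651 and 558 for WT, 560, 1020 and 1055 for HET, and 1002, 1034 and 909 for KO, a difference of 0.56 ± 0.19 (adjusted p = 0.149) that was -0.31 ± 0.20 with the block. On both, HET replicate 1 lay with WT and HET replicates 2 and 3 with KO. Probe sets 1427185_at, 1427186_a_at and 1452347_at are built on 1 database sequence, so different probes for one sequence gave different answers. The log2 ratio of 1427186_a_at to 1452347_at was -2.18 to -1.90 in the first array group and -1.52 to -1.33 in the second, and that of 1427186_a_at to 1427185_at was -2.71 to -2.20 and -2.22 to -1.76. The ratio of 1421252_a_at to 1452347_at was -2.97 to -2.72 and -2.35 to -2.25, and that to 1427185_at was -3.34 to -3.10 and -2.98 to -2.59. Of these 4 ratios, 3 did not overlap between the array groups, and that of 1427186_a_at to 1427185_at overlapped slightly. By themselves 1421252_a_at (327 to 414 and 530 to 572) and 1427186_a_at (558 to 787 and 909 to 1055) also did not overlap between the groups. The ratios therefore add little to that split, and the share over other pairs of probe sets was not computed.

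Of the remaining Mef2a probe sets, 1425426_a_at read 146 to 248 with a difference of 0.03 ± 0.20, or -0.11 ± 0.37 with the block. The dimmest of the 28, 1442623_at, read 23.4, 49.8 and 35.0 for WT, 15.4, 29.2 and 9.09 for HET, and 67.5, 59.1 and 45.9 for KO. KO stood above HET on all arrays, by 1.15 ± 0.35 (adjusted p = 0.993; 1.11 with the block), at signals where background weighs most.

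Mef2c had 5 probe sets that ran both ways. On the brightest, 1424852_at, the signals were 900, 861 and 813 for WT, 991, 857 and 839 for HET, and 775, 737 and 805 for KO, every KO array being under every WT and HET array. The KO minus WT difference of -0.15 ± 0.10 (adjusted p = 0.516) was 0.07 ± 0.15 with the block. Probe set 1451507_at ran the opposite way, with 192, 186 and 136 for WT, 170, 209 and 295 for HET, and 218, 256 and 235 for KO. Its difference of 0.44 ± 0.19 (adjusted p = 0.272) was -0.07 ± 0.31 with the block. The other 3 had differences of -0.14 to 0.23 (-0.36 to -0.03 with the block) and overlapping arrays.

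Irx4, the homeodomain factor restricted to ventricles, had 1 probe set that read 595, 467 and 487 for WT, 512, 447 and 491 for HET, and 598, 466 and 437 for KO. The genotypes overlapped, with HET inside the range of KO. KO minus WT was -0.05 ± 0.14 (95% interval -0.34 to 0.24, limma adjusted p = 0.914), and 0.07 ± 0.23 with the block.

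Direction differed between probe sets of the same gene in 4 of the 8 genes that had more than 1, namely Tbx5, Hand2, Mef2a and Mef2c. In Gata6, Tbx20 and Hand1 all probe sets were higher in KO, and in Gata4 all were lower. In the fit without the block, the 95% interval of the KO minus WT difference lay within ±0.5 log2 in 14 of the 28. The same count was not made with the block or over all probe sets tested, so it does not set the factors apart.

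**Figure D3:**
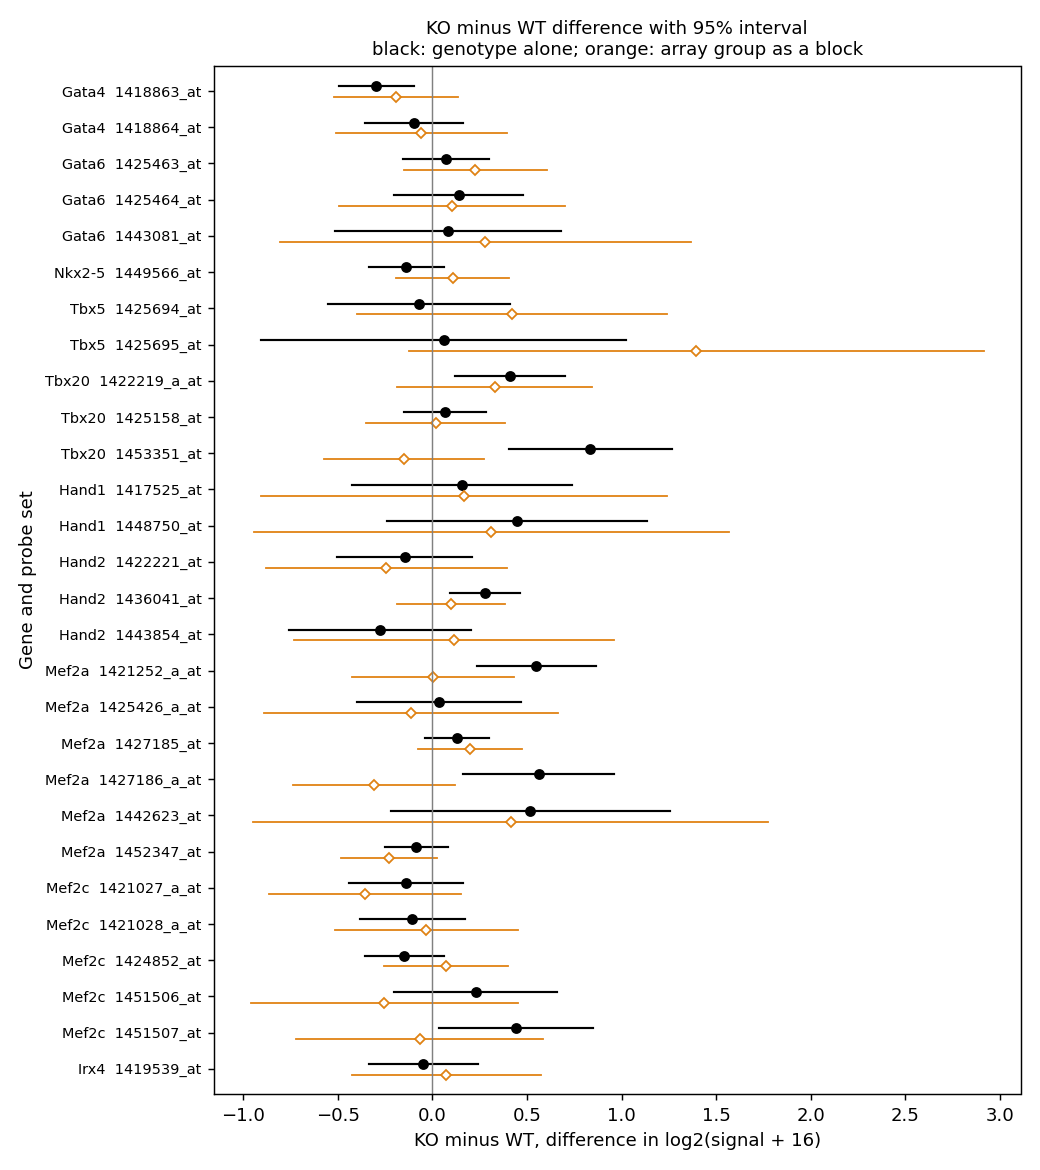
KO minus WT difference in log2(signal + 16) (x axis) of the 28 probe sets (y axis), with 95% intervals; black points are the fit by genotype alone and orange diamonds the fit with array group as a block. The black intervals of 7 probe sets leave out 0, and the orange intervals of all 28 include it, as do those of all but 6.25% of the probe sets tested.

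The HET arrays gave a view of the array groups within 1 genotype. HET replicates 2 and 3 differed from HET replicate 1 in the same direction as KO from WT in 20 of 28 probe sets (71.4%), against 61.1% of all probe sets tested. Among the 7 with an unadjusted p under 0.05 between KO and WT it was 7 of 7, against 81.6% of such probe sets in all. In 6 of 28 probe sets (21.4%) the first and second array groups did not overlap at all, against 11.8% of all tested, and those were Gata4 1418863_at, Tbx20 1453351_at, Hand2 1436041_at, Mef2a 1421252_a_at and 1427186_a_at and Mef2c 1451507_at. The part of the array group in these differences was not separated from genotype.

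**Figure D4:**
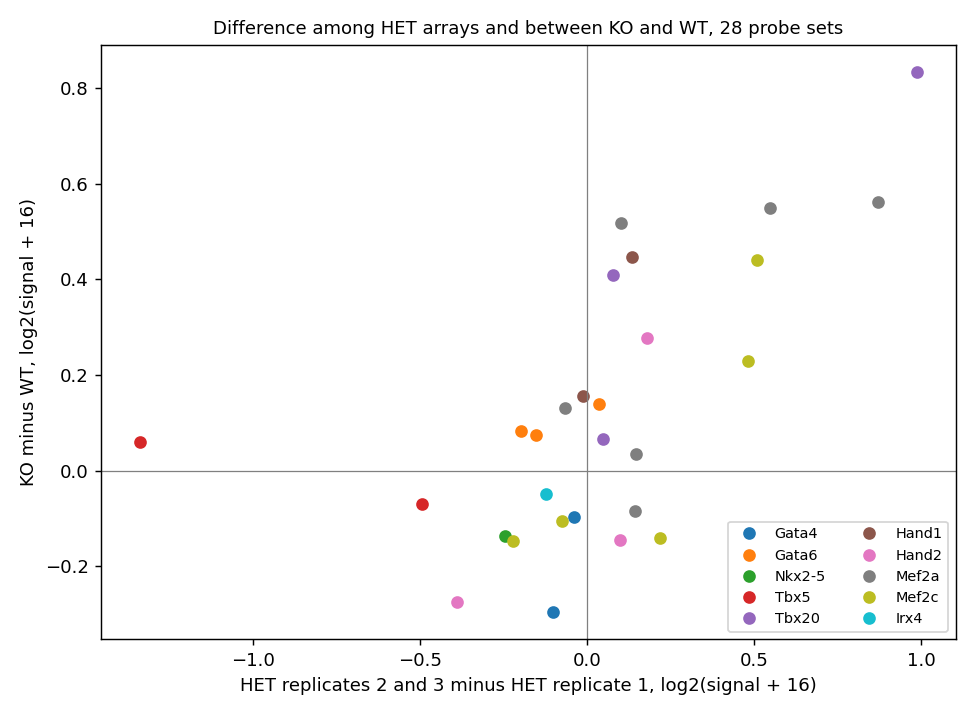
HET replicates 2 and 3 minus HET replicate 1 (x axis) against KO minus WT (y axis), both as differences in log2(signal + 16), 1 point per probe set, coloured by gene. Tbx20 1453351_at lies at the upper right (0.99 and 0.83) with Mef2a and Mef2c probe sets below it, and Tbx5 1425695_at at the far left (-1.34 and 0.06).

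Against WT, HET had 0 of 28 probe sets called, as in 0% of all tested. Unadjusted p under 0.05 was found in 4 of 28 (14.3%, all higher in HET), against 10.7% of all, namely Hand1 1448750_at, Hand2 1436041_at, Mef2a 1421252_a_at and Tbx20 1422219_a_at. Arrays did not overlap in 3 of 28 (10.7%), against 12.9%. With the block 0 of 28 had an unadjusted p under 0.05, against 7.17%. Between KO and HET 0 of 28 were called, against 0.00740% of all. An unadjusted p under 0.05 was found in 4 (14.3%, 2 higher and 2 lower in KO), against 4.35%, and arrays did not overlap in 5 (17.9%), against 10.2%. With the block there were 2 at an unadjusted p under 0.05 (7.14%), against 4.09%, and 0 called. These comparisons share arrays, WT in the first and HET in both.

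Partners and cofactors of the core factors were read from a list of 33 genes, all tested. This list, those below and the cell type markers were chosen with earlier results of these data known. Their shares called are therefore descriptive and do not measure an excess over all genes. Between KO and WT 0 rose and 1 fell, 22 were higher, and the median difference was 0.03, beside -0.01 over all 13028 genes, of which 1.62% were called and 48.4% were higher. With the array group as a block 1 gene in all, Kif22, was called between KO and WT, and Esrrg was not. Every call in the lists below was lost in that fit (blocked adjusted p 0.361 to 0.958). Smyd1, a muscle methyltransferase needed for ventricular growth in mice, fell from 1860 ± 39.4 to 1388 ± 108 (SD, n = 3), by 0.42 ± 0.09 on the log2 scale (limma adjusted p = 0.0407). With the block its difference was -0.15 ± 0.14. Hopx, a homeodomain-only protein that binds SRF, was next, at -0.45 ± 0.11 (adjusted p = 0.0539) and 0.10 with the block. Nfatc2 (-0.50 ± 0.14, adjusted p = 0.0888, -0.16 with the block) and Hdac4, a deacetylase that represses MEF2 (0.67 ± 0.23, adjusted p = 0.139, 1.02 with the block) were not called.

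Other cardiac developmental factors formed a list of 40, of which 38 were on the array and 34 bright enough to test. Gata5, Mef2b, Tbx1 and Isl1 were too dim. Between KO and WT 2 rose and 1 fell (8.82% called, against 1.62% of all genes), and the median was 0.06, or -0.10 with the block. Sox4, a high-mobility-group factor of the outflow tract, rose by 0.54 ± 0.10 (adjusted p = 0.0262), and its blocked difference was 0.09. Tbx18, a T-box factor of the epicardium and sinus horns, rose by 0.84 ± 0.17 (adjusted p = 0.032), with 0.23 under the block. Irx5, an Iroquois factor that shapes the gradient of repolarisation across the ventricular wall in mice, fell from 266 ± 27.4 in WT through 220 ± 30.0 in HET to 162 ± 27.9 in KO. Its difference was -0.67 ± 0.16 (adjusted p = 0.0483), and -0.93 ± 0.28 with the block. Hey2, a Notch target of compact myocardium, had 0.86 ± 0.21 (adjusted p = 0.0542) and -0.24 with the block.

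Downstream cardiac genes, a chosen list of 42 with 38 tested, had 1 rise and 3 falls between KO and WT (10.5% called, against 1.62% of all genes). Whether each is a target of the core factors was not tested. Of the 38, 12 were higher, against 48.4% of all genes, and the median was -0.11, or -0.01 with the block. The natriuretic peptide gene Nppa, a classical target of Gata4, Nkx2-5 and Tbx5, rose by 0.24 ± 0.06 (adjusted p = 0.0459; 0.34 with the block). Cited1, a transcriptional cofactor, fell by 0.52 ± 0.11 (adjusted p = 0.032), myoglobin (Mb) fell by 0.37 ± 0.07 (adjusted p = 0.0317) and calsequestrin 2 (Casq2) fell by 0.44 ± 0.09 (adjusted p = 0.0334). Their blocked differences were -0.18, -0.10 and -0.06. No member of the 3 lists was called between HET and WT or between KO and HET.

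Of 69 cell type markers tested between KO and WT, 3 were called (4.35%, against 1.62% of all genes), and 0 with the block. The 10 cardiomyocyte markers had a median of -0.13 (-0.02 with the block) with 0 called, and their summed signal was 154166 to 162948 in WT and 138351 to 151716 in KO. The 9 fibroblast markers had a median of 0.13 (0.22 with the block), with 1 rise, Lum (0.33, and 0.34 with the block), and sums of 35676 to 40932 in WT and 40216 to 41845 in KO. For 10 endothelial and endocardial markers the median was -0.03 (0.14 with the block) with 1 fall, Kdr (-0.74, and -0.25 with the block). For 8 epicardial markers it was 0.03 (0.08 with the block) with 1 rise, Tbx18, which was also counted among the developmental factors. The 7 smooth muscle and pericyte markers had a median of 0.24 (0.21 with the block) with 0 called, 4 higher and 3 lower. Their sums were 15580 to 17691 in WT and 17356 to 19897 in KO. Atrial, ventricular, leukocyte, erythroid, neural and valve markers had 0 calls. Only 1 of 6 neural, 2 of 6 erythroid and 3 of 4 valve markers were tested, and the ventricular and atrial lists include Irx4 and Tbx5 themselves. The part of these markers in the differences of the core factors was not tested.

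Over the 9 arrays, the gene with the profile most like each factor's brightest probe set (Pearson r of log2 values) was Acap2 for Tbx20 (0.99), 3000002C10Rik for Hand2 (0.98), Tent5a for Hand1 (0.98), Wwox for Gata4 (0.96) and Lrriq3 for Nkx2-5 (0.96). It was Shroom3 for Mef2c (0.95), Banf2 for Tbx5 (0.95), Sike1 for Mef2a (0.95), Zdhhc13 for Gata6 (0.94) and Nbr1 for Irx4 (0.93). The median best r over all 13028 genes was 0.95, so a best match of this height is usual with 9 arrays, which share genotype and array group.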

How the data were processed

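Total RNA (6 µg per array) was hybridised to Affymetrix mouse arrays, 3 per genotype. The authors deposited MAS5 signals, 1 linear intensity for each probe set, per the submitters' processing notes, which give no version. Without its top and bottom 2% each array averaged 200.0, so scaling was per array only. From these, log2(signal + 16) was computed. Probe sets with a mean at or above the 40th percentile (signal 21.7) entered limma 3.58.1 (R 4.3.3) with a mean for each genotype over all 9 arrays and moderated, two-sided tests that allow the spread to depend on intensity. P-values were adjusted over all 27022 probe sets by the Benjamini-Hochberg method, and values under 0.05 were called. Further fits used each gene's brightest probe set over all 9 arrays (13028 genes) or added the array group. The code was tested on simulated data. Every member probe set is reported. For each list, called genes and up to 4 with the smallest p are named. Members, lists and the partition of the arrays were chosen with earlier results of these data known. Symbols come from the platform annotation, with gene IDs updated through RefSeq where they matched. Signals rank probe sets of a gene by brightness but do not compare amounts of RNA between them. Alternatives are in the closing section.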

Additional observations from a re-analysis of the deposited data

How the results depend on the processing

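The 3 arrays per genotype and 2 undescribed array groups limit these results, and dim probe sets (Hand1, Tbx5, Mef2a 1442623_at) lie where MAS5 background weighs most. Between KO and WT, 0 of the 28 core factor probe sets were called, 2 with array quality weights, 3 with only the 6 arrays compared, 1 with 1 probe set per gene, and 0 to 4 when each array was left out in turn. Over all probe sets the count of 171 (106 up, 65 down, 62.0% up) was 14 with arrays shifted to one median (6 up, 8 down, 42.9% up), 41 with a pseudocount of 1, 112 with a filter at the 60th percentile, 0 without the intensity trend (1006 with array weights, 1438 with only the 6 arrays), 84 with the replicate block, 1 with the array group as a block, 7 with probe sets averaged per gene, and 11 to 1581, the ends being without KO replicate 1 and without HET replicate 1, leaving out single arrays. Among the 10 genes the count of 1, Tbx20, was 0 with quantile normalization, the median shift, a pseudocount of 1, no filter, the 60th percentile filter, no trend, the replicate block, the array group block or the mean of probe sets, 2 with only the 6 arrays (Tbx20 and Hand2), and 0 to 3 leaving out single arrays, with 3 (Tbx20, Hand2 and Gata4) without HET replicate 1. Of the 21 alternatives for it, the Tbx20 difference reversed only with the array group block, at -0.15 (adjusted p = 0.944). The cause was not tested.

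HET minus WT calls among the 28 numbered 0, and 0 to 4 leaving out single arrays (4 without HET replicate 1). Over all probe sets they were 0, 4 with the array group block, and 0 to 1186 leaving out single arrays (1186 without HET replicate 1). KO minus HET calls among the 28 were 0 under every alternative run. Over all probe sets they were 2, 1 without the trend, 0 with the median shift, only the 6 arrays, the replicate block, the array group block or the mean of probe sets, and 0 to 1 leaving out single arrays. Replicate numbers did not pair the samples (correlation of deviations -0.04 to 0.04 for the same number, -0.05 to 0.08 otherwise), and the replicate block called 0 of the 28 in each comparison. Of 558 recomputed KO minus WT values of the 28, 521 kept sign and call, 27 changed sign uncalled and 10 became called, and 13 probe sets kept their sign throughout.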
